A study of Homo sapiens with 12 samples.

Results

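The insulin-like growth factor (IGF) axis was followed in KELLY and SK-N-AS, established human neuroblastoma cell lines, through 10 genes: the ligands IGF1 and IGF2, the receptors IGF1R and IGF2R, and the binding proteins IGFBP2 to IGFBP7. The genes were selected by name, 10 of 58735 gene rows in each count table, with the fall of IGFBP5 in SK-N-AS and the levels of the other members already known from these data. Their values in the contrasts that led to that choice are therefore given as descriptions with no p-value. KELLY cells received DMSO or 1 µM Erastin and SK-N-AS cells DMSO or 2 µM Erastin, each for 24 h. There were 3 replicates described as biological, which gave 12 RNA-seq libraries in 4 groups. For RNA-seq the paper states only that cells were seeded in triplicate, so parallel wells and separate experiments cannot be told apart. Erastin blocks the cystine/glutamate antiporter and induces ferroptosis, an iron-dependent form of cell death driven by lipid peroxidation, and the question of the series was how the transcriptome responds to it. Each line stands for 1 tumor-derived culture, with MYCN amplification in KELLY and not in SK-N-AS, and line and dose cannot be told apart where responses to Erastin are set side by side; the DMSO libraries are free of this limit.

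IGF1 and IGF2 are secreted growth factors that activate the receptor tyrosine kinase IGF1R and through it the IRS, PI3K and AKT pathway. IGF2R, the mannose-6-phosphate receptor, takes up IGF2 for degradation and does not signal as a kinase. The binding proteins hold the ligands in the extracellular space, and proteases such as PAPPA release them again; IGF2 has long been studied as an autocrine growth factor of neuroblastoma.

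Total counts lay between 24169796 and 29835670 per library, and no pair of libraries held identical counts. Levels are given as CPM, counts scaled to library size with TMM factors over all 12 libraries, and changes come from the fit of the comparison itself. All 10 adrenergic neuroblast markers reached a mean of at least 1 CPM in both lines. Under DMSO they summed to 4749 to 8283 CPM in KELLY and 1153 to 1322 CPM in SK-N-AS. The 10 mesenchymal markers summed to 272 to 348 CPM in KELLY and 2692 to 2944 CPM in SK-N-AS under DMSO. MYCN stood at 5071 to 5696 CPM in KELLY and 0.278 to 0.413 CPM in SK-N-AS. Of the blood markers, PTPRC was at 0 in KELLY and at 547 ± 67.3 CPM (SD, n = 3) in SK-N-AS under DMSO, whereas CD3E and LYZ were at 0 in every library. Fibroblast matrix genes summed to 11.2 to 14.9 CPM in KELLY and 3021 to 3392 CPM in SK-N-AS, and endothelial genes to 3.98 to 11.2 CPM across the DMSO libraries of both lines. The part of these genes in the levels below was not tested.

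IGFBP5, the binding protein on which the results turn, lies on chromosome 2 of GRCh38 (chr2:216672105-216695549, minus strand), tail to tail with IGFBP2 (chr2:216632828-216664436, plus strand). The gap between their annotated ends is 7668 bp. The 250 bases before the start of IGFBP5, IGFBP2 and IGFBP4 are shown 5′ to 3′, because IGFBP5 changed with Erastin in SK-N-AS, IGFBP2 is its neighbor, and IGFBP4 had the highest mean level per kilobase of exon among the binding proteins of both lines, with overlap with IGFBP2 in KELLY. Capitals mark the matches to the searched motifs. The sequences come from RefSeq (GRCh38.p14) and end at the base before the transcription start.

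IGFBP5, chr2:216695550-216695799, minus strand: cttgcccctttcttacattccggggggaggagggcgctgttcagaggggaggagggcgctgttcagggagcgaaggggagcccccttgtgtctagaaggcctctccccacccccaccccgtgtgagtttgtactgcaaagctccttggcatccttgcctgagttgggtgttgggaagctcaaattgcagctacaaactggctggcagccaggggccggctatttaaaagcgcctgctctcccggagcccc
IGFBP2, chr2:216632578-216632827, plus strand: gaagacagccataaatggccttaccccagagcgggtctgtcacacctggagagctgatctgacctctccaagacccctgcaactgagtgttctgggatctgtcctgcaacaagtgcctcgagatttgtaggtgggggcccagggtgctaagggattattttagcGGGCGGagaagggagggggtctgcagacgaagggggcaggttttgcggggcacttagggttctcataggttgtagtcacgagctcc
IGFBP4, chr17:40443200-40443449, plus strand: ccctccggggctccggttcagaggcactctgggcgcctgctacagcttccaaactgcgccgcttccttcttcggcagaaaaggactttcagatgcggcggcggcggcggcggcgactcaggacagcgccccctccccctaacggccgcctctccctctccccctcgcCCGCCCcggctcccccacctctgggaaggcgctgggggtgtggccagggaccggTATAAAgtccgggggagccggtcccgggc

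Searched on both strands were TATAAA (the TATA box), GGGCGG (a GC box bound by SP factors), TGATGNAA (a core of composite C/EBP-ATF elements) and TGACGTCA (the cAMP response element). IGFBP5 held none of these letters in this window. IGFBP4 held TATAAA at -29 and GGGCGG on the minus strand at -83, and IGFBP2 held GGGCGG at -86, all counted from the start as the motif's first base. In windows of the same length before 35116 RefSeq starts, TATAAA occurred in 10.7%, GGGCGG in 42.6%, TGATGNAA in 3.14% and TGACGTCA in 1.65%. RefSeq entries were matched for 8 of the 10 genes, and the entries named IGF2 and IGFBP7 were not among them. GGGCGG was also found before IGF1R (2 matches), IGF2R (6 matches, some of which overlap), IGFBP3 (2) and IGFBP6 (1), and no match before IGF1.

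**Figure D1:**
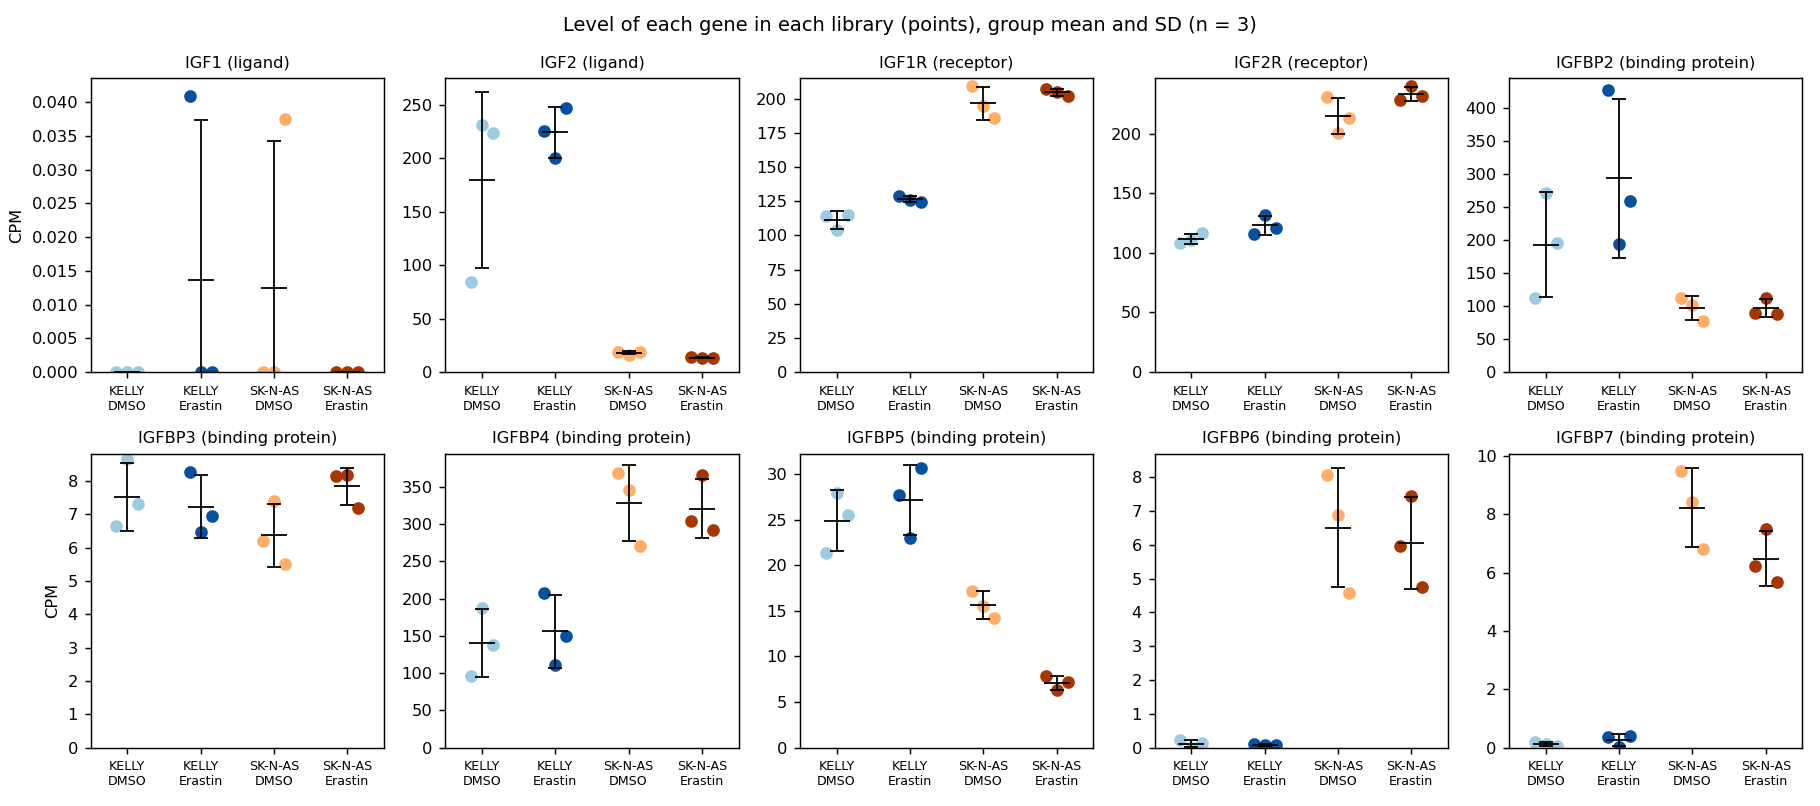
Level of each of the 10 genes in CPM (linear axes from 0, a separate scale for each gene) in every library, with points for libraries and black bars for the mean and SD of 3 replicates. IGFBP5 under Erastin in SK-N-AS, 6.33 to 7.88 CPM, lies below all other libraries, and IGF2 is high in KELLY, whereas IGFBP6 and IGFBP7 are near 0 there.

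IGF2 was higher in KELLY than in SK-N-AS, and IGF1 was close to unread in both lines. IGF1 had 0 counts in 10 of the 12 libraries and 1 count each in KELLY Erastin replicate 1 and SK-N-AS DMSO replicate 3. These counts are below the limit of 3 counts that a count of 0 allows, which is 0.102 to 0.123 CPM in these libraries and covers counting error only. IGF2 (chr11:2129112-2158391, minus strand) was at 84.4, 231 and 223 CPM in KELLY under DMSO and at 19.1, 16.4 and 18.5 CPM in SK-N-AS under DMSO, so that the lines did not overlap. The difference was 3.33 ± 0.36 (log2 ± SE, KELLY minus SK-N-AS), or 10.1-fold. Within KELLY, DMSO replicate 1 was low and the other DMSO libraries were alike.

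The reads of IGF2 are open to overlap with its neighbors. IGF2-AS is transcribed across the locus on the other strand, and whether the counting used strand is not stated; it was at 8.47, 23.6 and 16.6 CPM in KELLY under DMSO and at 1.99, 1.71 and 0.902 CPM in SK-N-AS. INS-IGF2, the read-through gene with insulin, had 0 counts in all 12 libraries. It overlaps IGF2 on the same strand, and how reads shared between genes were counted is not stated. The 0 counts therefore do not show that read-through is absent. Shared reads left uncounted could also lower the level of IGF2 per kilobase. A second row named IGF2 held only 0 and was not used.

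Both receptors were lower in KELLY. IGF1R (chr15:98648539-98964530, plus strand) was at 114, 104 and 115 CPM in KELLY and at 210, 194 and 186 CPM in SK-N-AS under DMSO, with no overlap and a difference of -0.81 ± 0.12 on the log2 scale (1.75-fold lower). IGF2R (chr6:159969082-160113507, plus strand) was at 108, 111 and 116 CPM in KELLY and at 231, 201 and 213 CPM in SK-N-AS, a difference of -0.93 ± 0.12 (1.91-fold lower). KELLY thus held more IGF2 transcript and less of both receptor transcripts. INSR, the insulin receptor, which forms hybrids with IGF1R and binds IGF2, was read at 0, 0 and 0.140 CPM in KELLY and at 9.45, 10.2 and 9.02 CPM in SK-N-AS under DMSO.

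The binding proteins split in both directions between the lines. IGFBP2, which is common in neural tissue, was at 112, 271 and 195 CPM in KELLY and at 112, 101 and 76.8 CPM in SK-N-AS under DMSO, a difference of 1.01 ± 0.30 on the log2 scale. The lowest KELLY library touched the highest of SK-N-AS, and without SK-N-AS DMSO replicate 3 the gene no longer passed the test (log2 difference 0.86). IGFBP5 (bound to matrix and to the cell surface as well as to IGFs) was higher in KELLY, at 21.3, 27.9 and 25.5 CPM against 17.2, 15.5 and 14.2 CPM, a difference of 0.68 ± 0.17 with no overlap. IGFBP4 (chr17:40443450-40457725, plus strand), an inhibitor of IGF action that PAPPA cleaves, was lower in KELLY, at 95.7, 188 and 138 CPM against 369, 345 and 271 CPM, a difference of -1.21 ± 0.24.

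IGFBP6 and IGFBP7 were close to unread in KELLY. IGFBP6 (chr12:53097436-53102345, plus strand), which prefers IGF2 over IGF1, had 10 counts over the 3 KELLY DMSO libraries and 514 in SK-N-AS, a ratio of summed counts of 51.4 (95% exact counting interval 27.7 to 108). IGFBP7 (chr4:57030773-57110385, minus strand), which binds IGFs weakly, had 10 counts against 651, a ratio of 65.1 (35.2 to 136). Both intervals cover counting error only. Without KELLY DMSO replicate 1 the fitted log2 difference of IGFBP6 went from -5.62 to -6.33. IGFBP3 (chr7:45912245-45921874, minus strand), the main carrier of IGFs in serum, differed by 0.25 ± 0.20, with 6.65, 8.65 and 7.31 CPM in KELLY and 6.22, 7.39 and 5.52 CPM in SK-N-AS.

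Of the 9 members tested between the lines under DMSO, 8 were past an adjusted p of 0.05 (edgeR quasi-likelihood test, Benjamini-Hochberg), 3 higher and 5 lower in KELLY, beside 61.3% of all 17089 genes tested. The DMSO groups did not overlap for 7 members, beside 66.3% of all genes. IGFBP6 and IGFBP7 are among the lower and the non-overlapping members. Each had 10 counts over the KELLY DMSO libraries and passed the count filter through SK-N-AS, so their part in both counts depends on the filter. Since the levels were known when the members were selected and the background is this high, the counts are a description of the 10 genes.

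Levels were set in order within a line as CPM per kilobase of annotated exon. In SK-N-AS under DMSO, IGFBP4 came first at 149 ± 23.2 (SD, n = 3), followed by IGFBP2 at 20.4 ± 3.80, IGF1R at 14.1 ± 0.862 and IGF2R at 9.51 ± 0.669, and each of these stood apart from the next. IGFBP6 at 4.83 and IGFBP7 at 4.27 overlapped each other, as did IGF2 at 2.52 and IGFBP5 at 2.42. IGFBP3 followed at 1.40 and IGF1 was last. In KELLY under DMSO the order was IGFBP4 at 63.6 ± 20.9, IGFBP2 at 40.6 ± 16.8 and IGF2 at 25.1 ± 11.6, of which neighbors overlapped, then IGF1R at 7.97, IGF2R at 4.94, IGFBP5 at 3.85 and IGFBP3 at 1.65, each apart from the next.

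IGFBP4 and IGFBP2 together made up most of the binding protein transcript. IGFBP4 took 58.2% (57.1 to 60.3 over 3 libraries) of the summed level per kilobase of the 6 binding proteins in KELLY under DMSO and 81.8% (81.3 to 82.2) in SK-N-AS. IGFBP2 took 36.3% (32.8 to 38.5) and 11.2% (10.9 to 11.5). IGFBP5 took 3.70% (2.90 to 4.58) and 1.34% (1.26 to 1.47), so its fall with Erastin in SK-N-AS concerned a minor share of the summed transcript.

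**Figure D2:**
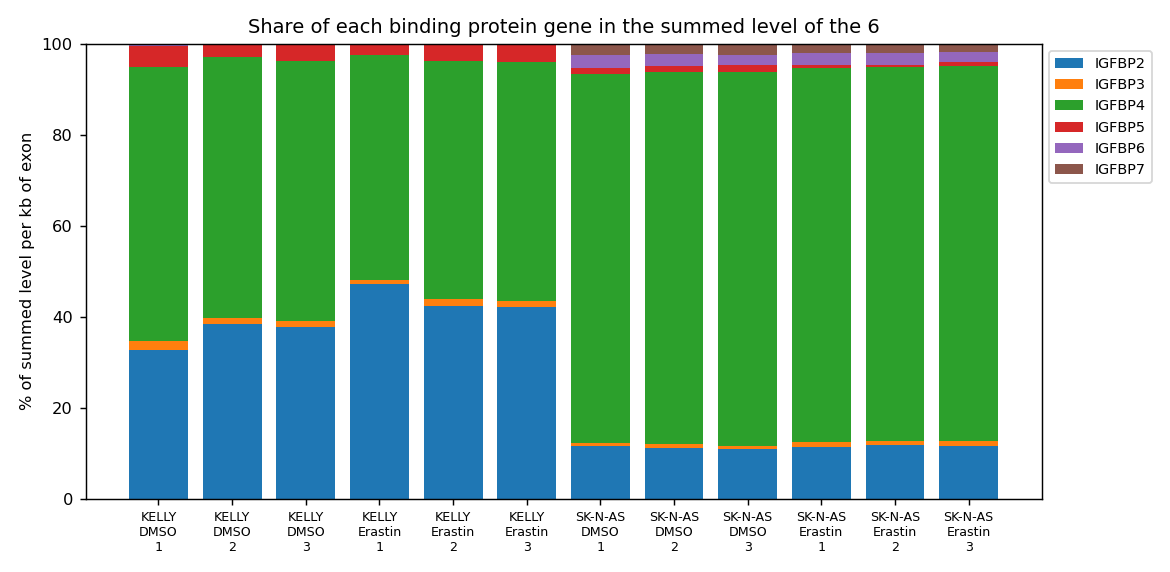
Share of each binding protein gene in the summed level per kilobase of exon of the 6 genes (percent, stacked to 100), with a bar for each of the 12 libraries. IGFBP4 and IGFBP2 fill most of every bar, IGFBP6 and IGFBP7 are visible in SK-N-AS, and the IGFBP5 band of SK-N-AS goes from 1.34% to 0.635% with Erastin.

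IGFBP5 fell with Erastin in SK-N-AS, and its change in KELLY was not called. In SK-N-AS its counts were 468, 391 and 377 under DMSO and 214, 186 and 184 under Erastin, or 17.2, 15.5 and 14.2 CPM against 7.88, 6.33 and 7.17 CPM. The groups did not overlap. The change was -1.12 ± 0.13 on the log2 scale, 2.18-fold lower with Erastin. In bulk libraries, fewer cells that hold the transcript and less transcript per cell cannot be told apart. Some marker sums of SK-N-AS were also lower with Erastin without overlap. The 4 endothelial genes went from 10.7 to 11.2 CPM to 5.88 to 7.63 CPM, mostly KDR. The 10 mesenchymal genes went from 2692 to 2944 CPM to 2597 to 2629 CPM, and the 5 fibroblast matrix genes from 3021 to 3392 CPM to 2828 to 2897 CPM. VIM (mean 1454 and then 1336 CPM) and COL1A1 (2332 and then 2142 CPM) were the largest terms of these sums. FN1, FOSL2 and COL1A2 were higher in mean with Erastin. The adrenergic and blood sums overlapped between the groups, and 14.8% of single genes tested had no overlap in either direction. The part of the markers in the fall of IGFBP5 was not tested. In KELLY the counts were 548, 686 and 729 under DMSO and 675, 594 and 846 under Erastin, 21.3, 27.9 and 25.5 CPM against 27.7, 23.0 and 30.6 CPM, with overlapping groups and a change of 0.13 ± 0.19.

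Set against the other binding proteins of the same libraries, IGFBP5 was lower in SK-N-AS with Erastin whichever gene was the reference. The log2 ratio of its counts to those of IGFBP4 was -4.42, -4.47 and -4.26 under DMSO and -5.27, -5.85 and -5.35 under Erastin, a change of -1.11. The ratio to IGFBP2, the neighboring gene, changed by -1.15, that to IGFBP3 by -1.44, to IGFBP6 by -1.05 and to IGFBP7 by -0.79. For all 5 references the DMSO and Erastin ranges were separate. The 5 ratios share the IGFBP5 counts that led to the choice of the genes, so they describe 1 fall and are not separate support. In KELLY the ratios changed by -0.50 (IGFBP2), 0.18 (IGFBP3) and -0.04 (IGFBP4), and the ranges overlapped for each.

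The other members of SK-N-AS changed by less than IGFBP5. IGF2 was at 19.1, 16.4 and 18.5 CPM under DMSO and at 14.4, 12.9 and 13.4 CPM under Erastin, groups that did not overlap, and its change of -0.40 ± 0.11 was not past the threshold. IGF1R changed by 0.07 ± 0.08 and IGF2R by 0.13 ± 0.08. Among the binding proteins, IGFBP4 changed by -0.02 ± 0.12, IGFBP2 by 0.01 ± 0.14, IGFBP3 by 0.31 ± 0.14, IGFBP6 by -0.09 ± 0.21 and IGFBP7 by -0.33 ± 0.16. With the lower IGFBP5, the order per kilobase under Erastin ran IGF2 at 1.90, IGFBP3 at 1.72 and IGFBP5 at 1.10, each apart from the next, so that IGFBP5 came after IGFBP3. With the longest transcript as the length, IGFBP3 at 2.98 came before IGF2 at 2.43 and IGFBP5 was still behind both.

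Of the 9 members tested in SK-N-AS, IGFBP5 alone was past an adjusted p of 0.05 (edgeR), beside 0.659% of 16095 genes, and alone past the threshold of the study (1.5-fold or more with p up to 0.05, unadjusted), beside 2.67%. Members whose groups did not overlap numbered 2, IGF2 and IGFBP5, both lower with Erastin, beside 14.8% of genes with no overlap in either direction. The median log2 change was -0.02 over the 9 members and -0.01 over all genes tested. Nothing is read from these counts, since the contrast led to the choice of the genes.

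**Figure D3:**
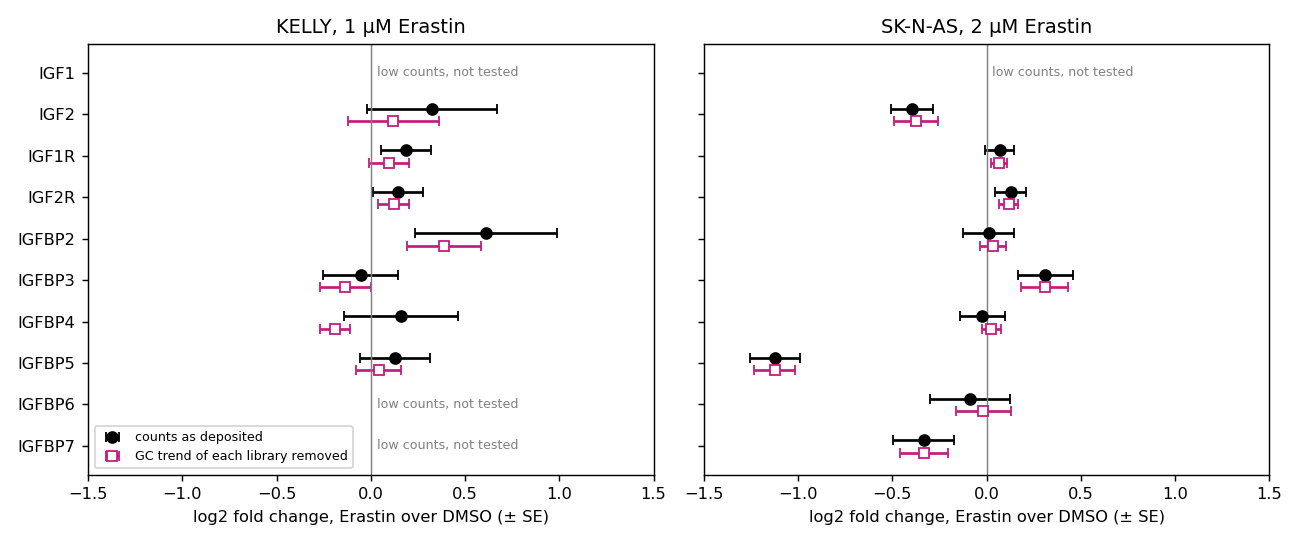
Log2 fold change with Erastin (± SE from edgeR, 3 against 3 libraries) of each member in KELLY and SK-N-AS, from the counts as deposited (filled circles) and after removal of each library's trend with GC content (open squares). IGFBP5 in SK-N-AS lies at -1.12 and -1.13, IGFBP4 in KELLY moves from 0.16 to -0.19, and genes with too few counts are marked as not tested.

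In KELLY, 7 of the 10 members had enough counts for the test, and IGF1, IGFBP6 and IGFBP7 did not. None of the 7 was past an adjusted p of 0.05 by edgeR, beside 0.00615% of 16258 genes (1 gene, STC2). At an unadjusted p under 0.05 the count was also 0, as it was by DESeq2 on both criteria, and by the threshold of the study it was 0 beside 2.03% of genes. The choice of the genes took in the KELLY contrast as well, so these counts are a description. With 1 gene called among all tested, a count of 0 among 7 carries little information. The median log2 change of the 7 was 0.16, beside 0.01 over all genes tested. IGF1R was at 114, 104 and 115 CPM under DMSO and at 129, 126 and 124 CPM under Erastin, the only member whose groups did not overlap (change 0.19 ± 0.13), beside 8.54% of all genes.

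The largest change among the 7 was that of IGFBP2, at 112, 271 and 195 CPM under DMSO and 427, 194 and 259 CPM under Erastin, a change of 0.61 ± 0.38 with overlapping groups. IGFBP4 was at 95.7, 188 and 138 CPM and then at 208, 111 and 150 CPM (0.16 ± 0.30), and IGF2 at 84.4, 231 and 223 CPM and then at 225, 200 and 247 CPM (0.32 ± 0.35). IGF2R changed by 0.14 ± 0.13 and IGFBP3 by -0.06 ± 0.20. Without KELLY DMSO replicate 2, IGFBP2 was past the threshold of the study (log2 change 0.93), and with that library it was not.

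These KELLY levels moved with the base composition of the libraries. As a measure, the mean log2 deviation of genes with over 60% GC minus that of genes with under 40% GC was taken in each library. It was -1.17, 0.37 and -0.20 in KELLY DMSO replicates 1 to 3 and 1.24, -0.34 and 0.09 in the Erastin replicates, but no larger than 0.44 in either direction in SK-N-AS. Within each KELLY group, IGFBP2 (57.1% GC) and IGFBP4 (62.6% GC) followed the order of this shift. After the trend was removed, the change was 0.39 ± 0.20 for IGFBP2, -0.19 ± 0.08 for IGFBP4 and 0.12 ± 0.24 for IGF2 (60.5% GC). Without KELLY DMSO replicate 1 and Erastin replicate 1, the libraries with the largest shifts, left out together after the data had been seen, the changes were -0.04, -0.31 and -0.02. IGFBP5 (51.9% GC) in SK-N-AS had a change of -1.13 ± 0.11 after the same correction.

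**Figure D4:**
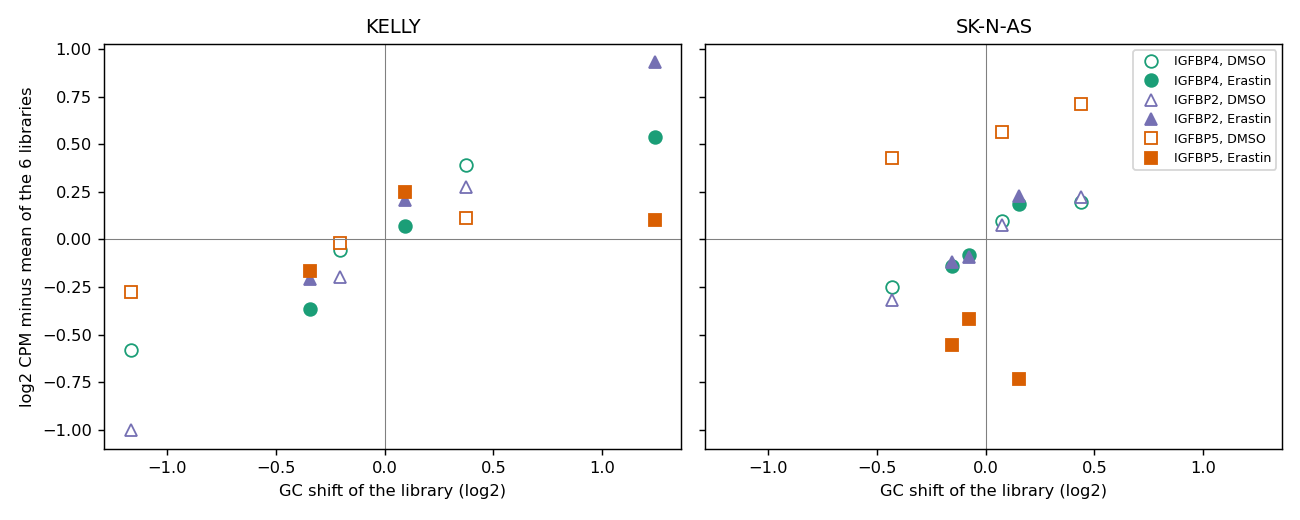
Log2 CPM of IGFBP4, IGFBP2 and IGFBP5 in each library, relative to the mean of the 6 libraries of the line, against the GC shift of the library (log2, genes over 60% GC minus genes under 40% GC). Open symbols are DMSO and filled symbols Erastin; in KELLY the shift spans -1.17 to 1.24 with IGFBP2 and IGFBP4 low at its lowest and high at its highest value, and in SK-N-AS the IGFBP5 symbols separate by treatment instead.

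The response of IGFBP5 was set against itself across the lines in a joint model of the 12 libraries. The KELLY change minus the SK-N-AS change was 1.26 ± 0.22 on the log2 scale for IGFBP5, 0.72 ± 0.40 for IGF2, 0.60 ± 0.44 for IGFBP2 and -0.36 ± 0.24 for IGFBP3. None of the 9 members tested was past an adjusted p of 0.05 by edgeR, beside 0.00548% of 18239 genes (1 gene, STC2). At an unadjusted p under 0.05 the count was 1, IGFBP5, and by DESeq2 IGFBP5 was called. The joint model holds the SK-N-AS contrast that led to the choice of the genes. These counts are therefore a description, and nothing is read from them. IGFBP7 had a difference of 1.40 ± 0.70 that rests on the few counts of KELLY.

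Among 12198 genes compared over all 12 libraries, those most like IGFBP5 by Pearson's r of log2 CPM were TRPV2, a cation channel (0.98), FAM171A1 (0.95), DDN (0.95), WWC1 (0.95) and SUGCT (0.94). Over the 6 SK-N-AS libraries (12403 genes compared), they were ERVMER61-1, LTBP1, which binds latent TGF-β, TRPV2, TFAP2B, a transcription factor of the neural crest, and DDC, an enzyme of catecholamine synthesis, each with r of 0.99. In SK-N-AS, 73 genes had r over 0.95. The libraries share line and treatment, so these values describe similar profiles and carry no test. Pearson's r takes no account of the size of a change. TRPV2 changed by -1.11 in SK-N-AS and -0.14 in KELLY on the log2 scale. The others changed by less in SK-N-AS: DDN by -0.92, ERVMER61-1 by -0.65, SUGCT by -0.62, WWC1 by -0.34, TFAP2B by -0.32, LTBP1 by -0.27, DDC by -0.21 and FAM171A1 by -0.19.

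The genes around IGFBP5 changed by less than it did in SK-N-AS. Within 500 kb of IGFBP2 and IGFBP5 the annotation places 5 other protein-coding genes. Beside the change of -1.12 for IGFBP5 in SK-N-AS, IGFBP2 changed by 0.01, XRCC5 (DNA end joining) by -0.10, SMARCAL1 (a DNA annealing helicase) by -0.07 and RPL37A (a ribosomal protein) by -0.12. MARCHF4, a membrane ubiquitin ligase, changed by -0.42 with groups that did not overlap (adjusted p = 0.174, edgeR), and TNP1 had no counts.

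Of 41 further genes of the pathway, 33 were tested in SK-N-AS, of which GRB10 and STC2 rose and STC1 fell at an adjusted p under 0.05 (edgeR), 3 of 33 beside 0.659% of all genes. In KELLY 28 were tested and STC2 rose, 1 of 28 beside 0.00615%; STC2 is itself the gene that makes up this background. The median log2 change of these lists was -0.003 in SK-N-AS and 0.12 in KELLY, beside -0.01 and 0.01 over all genes. The list was chosen with earlier results of these data known, and STC2 was among the genes to be named in any case. The counts are therefore a description and no measure of the pathway as a whole. The p-values of its genes below carry the same limit.

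The called genes regulate the release of IGFs and the signal of their receptor. STC1 and STC2 are stanniocalcins, secreted inhibitors of PAPPA. STC2 was at 4.74, 4.67 and 4.23 CPM in KELLY under DMSO and at 30.2, 25.2 and 26.5 CPM with Erastin, with no overlap and a rise of 2.59 ± 0.18 on the log2 scale (adjusted p = 0.00986, edgeR). In SK-N-AS it was at 65.6, 59.8 and 55.1 CPM and then at 81.0, 102 and 85.1 CPM, a rise of 0.58 ± 0.11 (adjusted p = 0.0270, edgeR). The rise was larger in KELLY, by 2.02 ± 0.19 (adjusted p = 0.00224, edgeR interaction). The KELLY call was lost without DMSO replicate 1, 2 or 3 or without Erastin replicate 3 (log2 change 2.62, 2.60, 2.53 and 2.60), and that in SK-N-AS without DMSO replicate 2 or Erastin replicate 2 or 3 (0.58, 0.49 and 0.61).

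STC1 went the other way in SK-N-AS. It was at 28.8, 32.0 and 31.3 CPM under DMSO and at 18.8, 18.4 and 16.3 CPM with Erastin, a fall of 0.78 on the log2 scale (SE 0.10, adjusted p = 0.00289, edgeR) that was called in all 12 alternatives. In KELLY STC1 changed by 0.19 ± 0.16, and the difference between the lines was 0.97 ± 0.18 (adjusted p = 0.361, edgeR interaction). PAPPA, the protease of IGFBP4 and IGFBP5 that both inhibit, was at 30.8, 24.2 and 25.4 CPM in SK-N-AS under DMSO and 19.9, 19.8 and 18.9 CPM with Erastin, a change of -0.45 ± 0.11 with no overlap (adjusted p = 0.147, edgeR). The call of PAPPA depended on the setting: it was made in 5 of 12 alternatives, among them DESeq2, the GC correction and the fit without SK-N-AS DMSO replicate 3 (log2 change -0.49), over which the adjusted p ran from 0.00127 to 0.554. In KELLY PAPPA averaged 0.724 CPM under DMSO.

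GRB10, an adaptor that binds IGF1R and the insulin receptor and dampens their signal, was at 14.8, 16.7 and 15.7 CPM in SK-N-AS under DMSO and at 21.7, 27.6 and 23.0 CPM with Erastin. The groups did not overlap and the rise was 0.63 ± 0.12 (adjusted p = 0.0291, edgeR). It lost its call without SK-N-AS DMSO replicate 2 or any of the Erastin replicates (log2 change 0.67, 0.70, 0.53 and 0.66). In KELLY, where it was higher, GRB10 was at 129, 136 and 141 CPM and then at 167, 205 and 196 CPM, with no overlap and a change of 0.49 ± 0.14 (adjusted p = 0.770, edgeR). GRB14, of the same list of adaptors, went the other way in SK-N-AS. It was at 9.1, 10.7 and 9.3 CPM under DMSO and at 6.2, 6.0 and 7.2 CPM with Erastin. The groups did not overlap, and the change of -0.57 ± 0.14 was not called (adjusted p = 0.112, edgeR). In 6 of 12 alternatives GRB14 was called. Its change in KELLY was 0.25 ± 0.35. INSR in SK-N-AS changed by 0.01 ± 0.12.

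**Figure D5:**
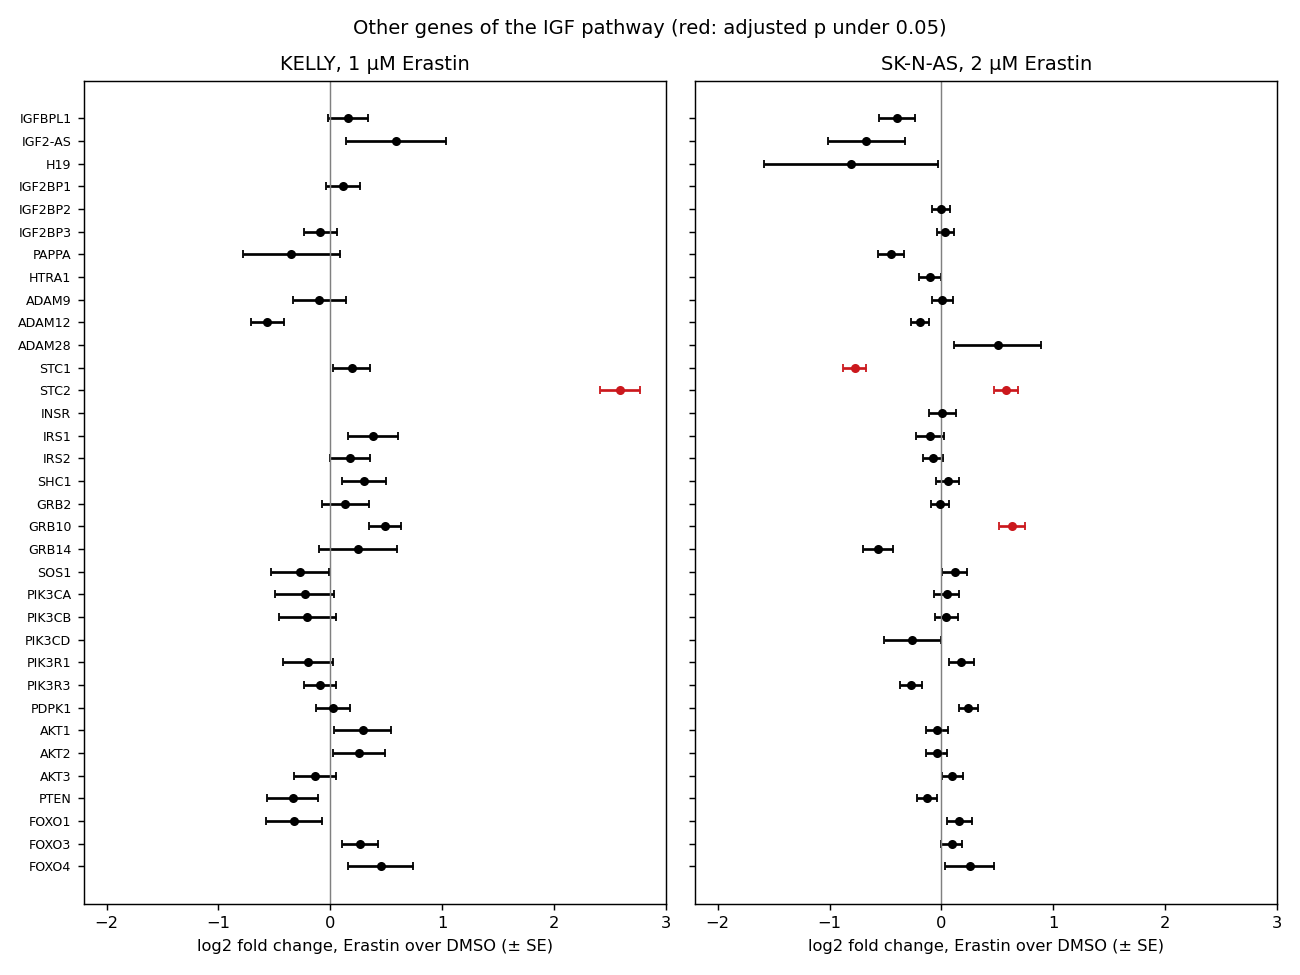
Log2 fold change with Erastin (± SE from edgeR, 3 against 3 libraries) of the other IGF pathway genes with enough counts, by line, in red where the adjusted p was under 0.05. STC2 at 2.59 stands out in KELLY, and in SK-N-AS GRB10 at 0.63 and STC2 at 0.58 lie above 0 and STC1 at -0.78 below it.

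Between the lines under DMSO, 26 of 33 tested pathway genes were past the threshold, 9 higher and 17 lower in KELLY, beside the 61.3% of all genes given above. All 7 tested proteases and protease inhibitors were lower in KELLY. HTRA1 and ADAM28 had 0 counts in the KELLY DMSO libraries and passed the count filter through SK-N-AS. PAPPA2, of the same list, had too few counts for the test and went the other way. It was at 0.272, 0.528 and 0.175 CPM in KELLY and at 0.147, 0 and 0.0376 CPM in SK-N-AS under DMSO. The shared direction of the 7 is therefore a description that depends in part on the filter. IGF2BP1, an RNA-binding protein named for the IGF2 mRNA, was at 565, 696 and 681 CPM in KELLY and at 0.184, 0.238 and 0.226 CPM in SK-N-AS. IGF2BP2 showed the reverse, with a mean of 0.127 CPM in KELLY and 68.4 CPM in SK-N-AS, and IGF2BP3 was alike in both, at 131 and 132 CPM. HTRA1, a secreted protease that cleaves IGFBP5, was at 0 in the 3 KELLY DMSO libraries and at 65.2 ± 3.51 CPM (SD, n = 3) in SK-N-AS.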

How the data were processed

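RNA was sequenced from 12 libraries of KELLY and SK-N-AS. The authors trimmed reads with Trimmomatic, counted them per gene with HTSeq (v2.0.3, GENCODE 29, GRCh38) and deposited raw counts per gene; the aligner and the strand setting are not given in the sources used here. Members and gene lists were chosen with earlier results of these data known. Genes passing filterByExpr were fitted with edgeR (v4.0.16) quasi-likelihood tests and TMM scaling, in each line (Erastin against DMSO), between the lines under DMSO, and jointly with an interaction. P-values were Benjamini-Hochberg adjusted over all genes tested. Named were the 10 members, and pathway genes called with Erastin in a line or in the interaction, together with INSR, STC2, PAPPA, IGF2BP1 and INS-IGF2. The 5 genes most like IGFBP5 over 12 and over 6 libraries (mean log2 CPM of at least 1) and protein-coding genes within 500 kb were named too. HTRA1, ADAM28, PAPPA2, IGF2BP2 and IGFBPL1 were named from the comparison between the lines. Of the 26 pathway genes called there, many were not named. IGF2-AS and IGF2BP3 were added for their tie to IGF2 after their values were seen. Exon length, GC content and coordinates came from GENCODE 44 by symbol (GC known for 85.4% and 86.1% of tested genes). Alternatives were RLE scaling, DESeq2 (v1.42.0), no count filter, a replicate block, a loess correction for GC (span 0.5), and leaving out libraries. The tests were checked on simulated counts. Total counts were 24169796 to 29835670 per library, and depth limits precision beside the GC shifts of the libraries. P-values weigh a change against the spread between these 3 replicates, moderated across genes.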

Additional observations from a re-analysis of the deposited data

Results flagged for a closer look

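STC2, the secreted inhibitor of PAPPA, was marked for a closer look because its response to Erastin differed between the lines by the interaction test. The log2 change in KELLY (2.59 ± 0.18, SE, n = 3 against 3) exceeded that in SK-N-AS (0.58 ± 0.11) by 2.02 ± 0.19 (adjusted p = 0.00224, edgeR). The rise was seen in all 3 Erastin libraries of both lines, each above every DMSO library of its line. KELLY started from a mean of 4.55 CPM and SK-N-AS from 60.1 CPM, and the doses were 1 µM and 2 µM, so that line and dose cannot be told apart. Among the 10 members of the IGF axis no interaction was past an adjusted p of 0.05 by edgeR, whereas DESeq2 called 1, IGFBP5. At an unadjusted p under 0.05 there was 1 by edgeR (IGFBP5) and 2 by DESeq2 (IGFBP5 and IGFBP7). The counts of members hold the SK-N-AS contrast that led to their choice and are a description only.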

How the results depend on the processing

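The log2 change of IGFBP5 in SK-N-AS ranged from -1.20 to -1.03 over 12 alternatives, a description of the contrast that led to its choice. STC1 kept its call in all 12, PAPPA was called in 5 of 12 and GRB14 in 6 of 12. In KELLY no member was called at an adjusted p of 0.05 under any of 13 alternatives, which is also a description. The difference between the lines in the response of IGFBP5 ranged from 1.16 to 1.36 over 18 alternatives, and 1 member, IGFBP5, was called there with DESeq2 and 1 with the GC correction. These values hold the same SK-N-AS contrast and are likewise a description. IGFBP2 in KELLY made 1 member past the threshold of the study without the count filter, and 0 to 1 when libraries were left out.

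Counts over all genes moved more than the members. At an adjusted p under 0.05, KELLY gave 31 genes with DESeq2, 19 without the filter and 32 with the GC correction, SK-N-AS gave 223, 265 and 874, and the interaction gave 12, 8 and 13. By the threshold of the study and without the filter the counts were 980 for KELLY and 851 for SK-N-AS. With libraries left out, KELLY gave 0 to 23 genes by adjusted p and 197 (without Erastin replicate 1) to 996 (without DMSO replicate 2) by the threshold of the study. SK-N-AS gave 53 (without DMSO replicate 2) to 855 (without DMSO replicate 3), and the interaction 1 to 3 genes. The 23 genes came from leaving out KELLY DMSO replicate 1 and Erastin replicate 1 together, an alternative chosen after seeing the data, and single libraries gave 0 to 2.

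Whether the replicate numbers pair the samples was not settled. Deviations of same-numbered DMSO and Erastin libraries correlated at -0.787, -0.829 and -0.145 for KELLY and at -0.135, 0.21 and 0.422 for SK-N-AS. Values for differently numbered libraries are not set beside them, and the KELLY libraries also differ in GC shift. The correlations therefore cannot show whether samples were handled in pairs. The replicate block gave 0 genes in KELLY by adjusted p and 114 by the threshold of the study, 308 in SK-N-AS and 0 for the interaction. The block with the GC correction gave 5 and 192 in KELLY, 1455 in SK-N-AS, with 2 members called there (IGF2 and IGFBP5), and 3 for the interaction. Under the block STC2 had no call in KELLY (log2 change 2.58) and none in the interaction.

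The directions that turned belonged to changes that had not passed the test. With the GC correction IGFBP4 turned in each fit, to -0.19 for KELLY, 0.024 for SK-N-AS and -0.22 for the interaction, and the block with the correction gave -0.19, 0.023 and -0.22. With libraries left out, the log2 changes in KELLY ranged from -0.022 to 0.55 (IGF2), -0.041 to 0.93 (IGFBP2), -0.24 to 0.051 (IGFBP3), -0.31 to 0.42 (IGFBP4) and -0.087 to 0.19 (IGF2BP1). In SK-N-AS they ranged from -0.13 to 0.13 (IGFBP2), -0.14 to 0.069 (IGFBP4), -0.29 to 0.10 (IGFBP6) and -0.031 to 0.062 (INSR). For the interaction they ranged from -0.0298 to 0.0705 (IGF2R), -0.069 to 0.46 (IGFBP4) and -0.90 to 0.35 (IGFBP6). The causes were not tested. IGF1 in all groups, and IGFBP6 and IGFBP7 in KELLY, had too few counts for a change to be seen at this depth.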

Other observations

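IGFBP2 and IGFBP4 moved together from library to library in KELLY, and their ratio varied less within a group than either level. The ratio of IGFBP2 to IGFBP4 counts was 1.17, 1.44 and 1.42 in the DMSO libraries and 2.05, 1.75 and 1.72 in the Erastin libraries, with no overlap. In SK-N-AS it was 0.304, 0.293 and 0.284 under DMSO and 0.295, 0.307 and 0.302 with Erastin. As shares of the summed binding protein level per kilobase in KELLY, IGFBP2 took 36.3% (32.8 to 38.5) under DMSO and 43.97% (42.3 to 47.2) with Erastin, and IGFBP4 took 58.2% (57.1 to 60.3) and 51.5% (49.5 to 52.7). The pattern was noticed after the values were seen and was not tested, the GC content of the genes is 57.1% and 62.6%, and the lowest and the highest ratio are those of the libraries with the lowest and the highest GC shift.

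The balance of the IGF2 mRNA-binding proteins differed between the lines, with IGF2BP1 in KELLY, IGF2BP2 in SK-N-AS and IGF2BP3 in both. IGFBPL1, an IGFBP-like gene outside the 10 members, was at 85.0, 123 and 121 CPM in KELLY under DMSO and at 4.05, 4.05 and 4.13 CPM in SK-N-AS, a log2 difference of 4.76 ± 0.20 (adjusted p = 2.57e-07, edgeR). With Erastin it was at 129, 111 and 125 CPM in KELLY and at 2.98, 2.86 and 3.39 CPM in SK-N-AS, where the groups did not overlap and the change of -0.40 ± 0.16 did not pass the test (adjusted p = 0.472, edgeR).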
